A study of Mus musculus with 16 samples.

Results

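The nuclei described here were chosen by their RNA for 7 genes that mark newborn neurons, Igfbpl1, Sema3c, Draxin, Cd24a, Adamts18, Sox11 and Dcx. A nucleus was taken when it held at least 3 unique molecular identifiers (UMIs, counts of single RNA molecules) from at least 2 of these genes and at most 1 UMI summed over Gad2, Pdgfra, Gja1, Mog and Inpp5d, which mark other cell types. This gave 245 of 17015 nuclei, 86 of 9830 from WT and 159 of 7185 from V321L mice. They are called the chosen nuclei below, and the 109 of them with at least 1 Igfbpl1 UMI are called Igfbpl1+ chosen nuclei.

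The nuclei came from frozen, microdissected dentate gyrus (DG) of 4 WT and 4 V321L mice, 2 females (F1, F2) and 2 males (M1, M2) of each genotype. V321L mice carry 2 copies of a germline valine to leucine substitution in the membrane-spanning part of Nrg1, in all cells and from conception, and WT mice carry 2 copies of the valine allele. Each mouse gave 1 10x Multiome library, in which RNA and accessible chromatin (ATAC) are read from the same nucleus. The labels give no age and no treatment other than genotype. WT libraries held between 4326426 and 14624265 RNA UMIs over all barcodes, and V321L libraries between 15505354 and 23582057.

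The DG keeps a pool of radial glia-like stem cells that pass through Eomes+ intermediate progenitors to neuroblasts and then to immature granule cells (GCs). Dcx, a microtubule-associated protein, and Sox11, a SoxC transcription factor, are classical markers of these stages. Prox1 and Neurod1 are transcription factors of the granule lineage, Calb2 marks a transient postmitotic stage and Calb1 marks mature GCs. Sema3c and Draxin are secreted guidance proteins, Cd24a is a surface glycoprotein of newborn neurons, Adamts18 is a secreted protease and Igfbpl1 is a secreted protein related to the IGF-binding proteins.

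The label of neuroblasts and immature GCs held for the chosen nuclei only in part. Genes beyond the 12 of the rule were ordered by the median over mice of the log2 ratio to granule cell nuclei, with 5 CPM added to both levels and among genes of at least 100 CPM. The first was Erbb4 (4.90), just ahead of Fnbp1l (4.86). Erbb4 is the neuregulin receptor that is abundant in interneurons, and its level was 990, 2801, 2810 and 956 CPM (UMIs of the gene per 1000000 UMIs of the summed nuclei) in WT F1, F2, M1 and M2, and 1577, 327, 1236 and 1042 CPM in the V321L mice in the same order. Granule cell nuclei of the same mice, taken as nuclei with at least 3 UMIs from at least 2 of Prox1, Plk5, Ntng1, Calb1, Dock10, Glis3 and C1ql2, held between 4.46 and 105 CPM of Erbb4. Cntnap4, Galntl6, Cnr1 and Grik1, which are also high in many interneurons, were among the 15 leading genes. At least 3 UMIs from 2 or more GABAergic neuron genes were found in 20 of the 86 WT chosen nuclei (23.3%) and in 28 of the 159 V321L chosen nuclei (17.6%). The rule used Gad2 to keep interneurons out, yet 30.2% of 86 WT and 27.6% of 116 V321L GABAergic nuclei, taken by Gad1, Gad2 and Slc32a1, met the criterion on the 7 genes.

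The Igfbpl1+ chosen nuclei held more RNA of immature neuron genes and less of interneuron genes than the other chosen nuclei. Summed over mice, Erbb4 stood at 0 CPM in the WT and 217 CPM in the V321L Igfbpl1+ nuclei, against 1718 and 1636 CPM in the chosen nuclei without Igfbpl1 and 14924 and 9538 CPM in GABAergic nuclei. Dlx6os1, a noncoding RNA of interneurons, was at 0 CPM in Igfbpl1+ nuclei of both genotypes and at 111 and 320 CPM in the others. The 12 WT Igfbpl1+ nuclei held only 4476, 8437, 640 and 2686 UMIs in F1, F2, M1 and M2. Their count of 0 for Dlx6os1 cannot be told from 111 CPM. Nnat, a small membrane protein of immature neurons, was at 246 and 981 CPM in Igfbpl1+ nuclei and at 4.28 and 55.1 CPM in the others. The median RNA depth was 1334 UMIs in WT and 1889 in V321L Igfbpl1+ nuclei, and 2820.5 and 5098.5 UMIs in the chosen nuclei without Igfbpl1. The chosen nuclei are therefore reported with and without the Igfbpl1+ split. All these levels describe nuclei that were picked by RNA, and no test was made on them.

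**Figure D1:**
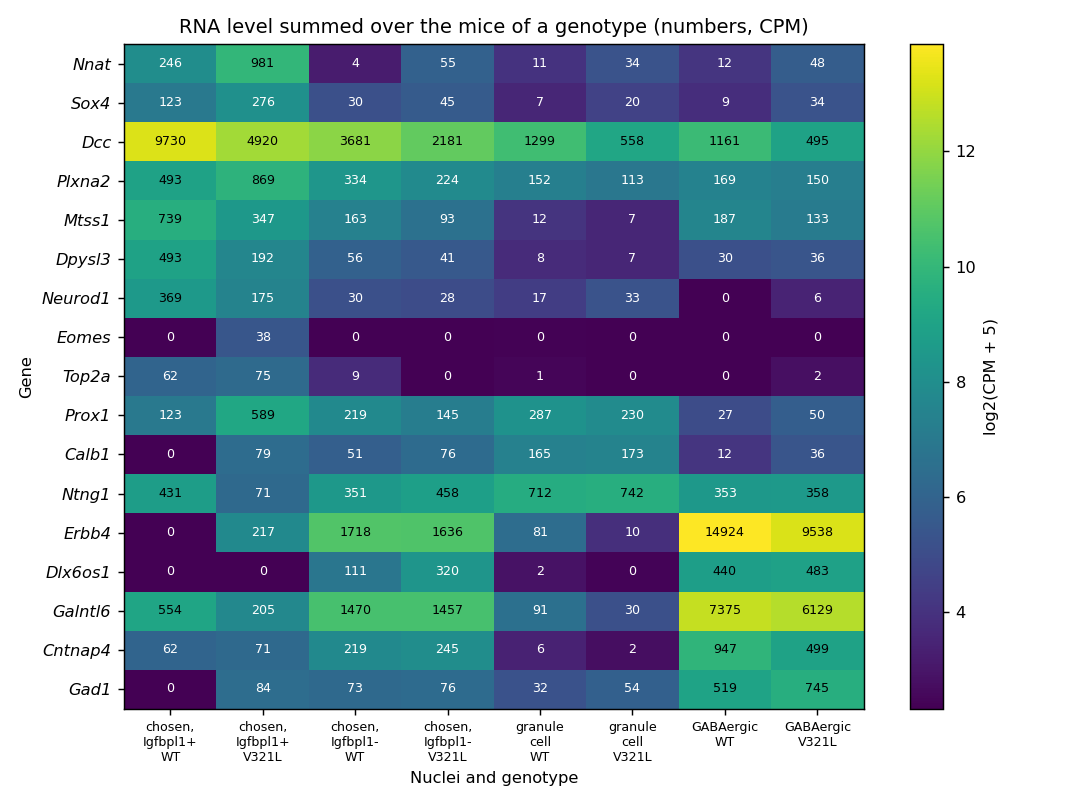
RNA levels in CPM (numbers in the cells; colour, log2 of CPM + 5) of 17 genes (rows) in Igfbpl1+ and Igfbpl1- chosen nuclei, granule cell nuclei and GABAergic nuclei, summed over the 4 mice of each genotype (columns). Within each genotype Nnat and Dcc are highest in Igfbpl1+ chosen nuclei, and Erbb4, Dlx6os1, Galntl6 and Cntnap4 are highest in GABAergic nuclei and next highest in Igfbpl1- chosen nuclei.

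Many chosen nuclei stood close to the limit of the rule. In WT, 39 of the 86 had exactly 3 UMIs of the 7 genes and 58 had UMIs from only 2 of them (67.4%), and 64 further nuclei had 2 UMIs from 2 genes and were left out. In V321L, 35 of the 159 had exactly 3 UMIs, 61 had only 2 of the genes (38.4%), and 73 nuclei with 2 UMIs from 2 genes were left out. No chosen nucleus had all 7 genes. The depth of the chosen nuclei was 1970 ± 933 UMIs in WT and 2422 ± 716 in V321L (mean of the medians of 4 mice ± SD), while that of granule cell nuclei was 1966 ± 465 and 3935 ± 765. Their median mitochondrial share was 0.123% ± 0.0607 in WT and 0.835% ± 0.363 in V321L mice. Barcodes shared by pairs of libraries numbered at most 13 among all nuclei and 0 among chosen nuclei.

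The first comparison asked whether chosen nuclei made up a different share of the V321L DG. They made up 0.872%, 0.718%, 0.404% and 1.55% of the nuclei of WT F1, F2, M1 and M2, and 2.04%, 2.77%, 2.84% and 1.13% of those of V321L F1, F2, M1 and M2. The groups overlapped, because V321L M2 was below WT M2. The means were 0.887% ± 0.485 and 2.20% ± 0.796 (SD, n = 4 mice each), and the difference of 1.31 percentage points did not pass a two-sided exact permutation test (p = 0.0571, where 0.0286 is the smallest p that 4 against 4 mice allow).

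Depth differs between the genotypes, so each nucleus was also thinned at random to 1000 UMIs before the rule, and shallower nuclei were left out. The share was then 0.179%, 0.176%, 0.0515% and 0.490% in WT F1, F2, M1 and M2 and 0.993%, 1.497%, 1.61% and 0.666% in V321L F1, F2, M1 and M2. All V321L mice were above all WT mice (0.224% ± 0.187 against 1.19% ± 0.442, exact permutation p = 0.0286). The test did not pass when any 1 WT mouse was left out (exact permutation p = 0.0571 each). Thinning left out 384, 1083, 816 and 519 WT nuclei and 262, 112, 118 and 182 V321L nuclei in the same order. At 500 UMIs the shares were 0.190% ± 0.157 and 0.529% ± 0.272, and the exact permutation test did not pass (p = 0.0857).

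The share of Igfbpl1+ chosen nuclei did not overlap between the genotypes. They were 0.164%, 0.159%, 0.0505% and 0.0888% of the nuclei in WT F1, F2, M1 and M2, which are 3, 6, 1 and 2 nuclei. In V321L F1, F2, M1 and M2 they were 1.36%, 1.73%, 1.52% and 0.692%, which are 28, 35, 23 and 11 nuclei. The lowest V321L mouse was above the highest WT mouse at full depth, at 1000 UMIs (0.0627% ± 0.0556 against 0.931% ± 0.397) and at 500 UMIs (0.0299% ± 0.0136 against 0.389% ± 0.234). This split was made after the values had been seen, so no test is given for it. Igfbpl1 UMIs were present in 12 of 86 WT chosen nuclei (13.95%, exact 95% interval 7.42 to 23.1) and in 97 of 159 V321L chosen nuclei (61.0%, 53.0 to 68.6), and these intervals cover counting error only.

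The difference in share depended on which of the 7 genes were counted. Without Igfbpl1 in the rule, and with nuclei thinned to 1000 UMIs, WT mice stood at 0.193% ± 0.191 and V321L mice at 0.806% ± 0.316, with no overlap. At full depth the same rule gave 0.840% ± 0.508 and 1.94% ± 0.791, which overlapped. With only Sema3c, Adamts18 and Dcx, the 3 longest genes at 155.5, 152.2 and 77.6 kb, the thinned shares were 0.147% ± 0.172 and 0.298% ± 0.0810, and the groups overlapped. The same 3 genes at full depth gave 0.473% ± 0.266 and 0.725% ± 0.214. These gene sets were also chosen after the values had been seen, so no test is given. Igfbpl1, Sox11 and Cd24a span 17.3, 8.45 and 5.10 kb. The part of gene length in the shares was not tested.

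**Figure D2:**
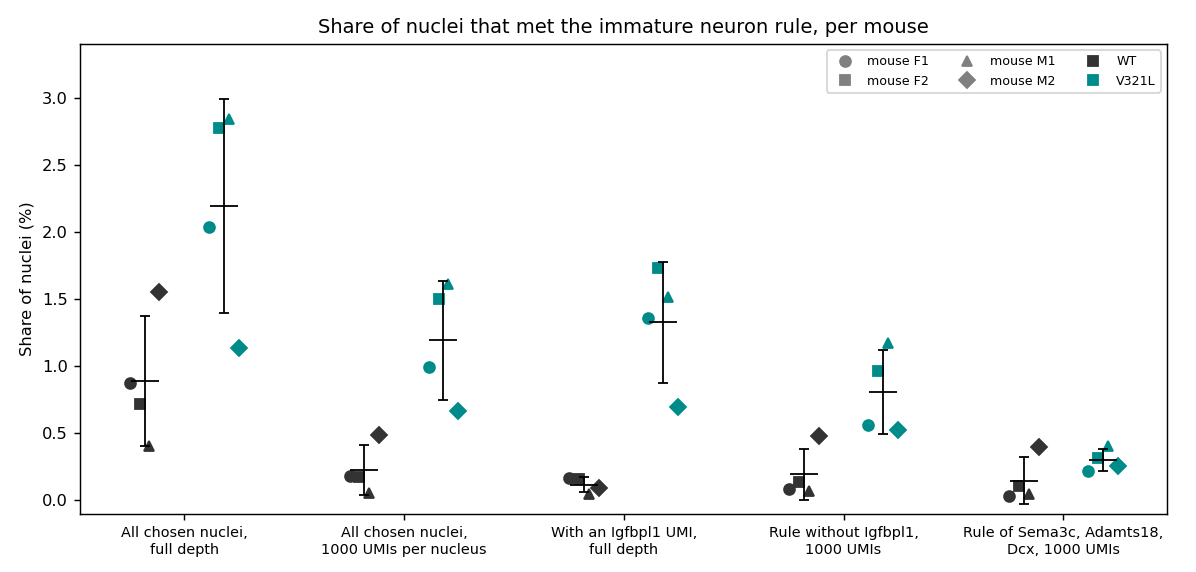
Percentage of nuclei of each mouse (y axis) that met the full rule at full depth and at 1000 UMIs, that met it with an Igfbpl1 UMI, and that met the rule without Igfbpl1 or with only Sema3c, Adamts18 and Dcx at 1000 UMIs (x axis). Symbols are mice, colours are genotypes, and horizontal marks with bars are the mean ± SD of 4 mice. The genotypes overlap in the first and the last group and are apart in the others.

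Free RNA in droplets gives UMIs in nuclei that do not express a gene, so the share was set beside that in other cell types. Oligodendrocyte nuclei, which should lack the 7 genes, when taken by at least 8 UMIs from at least 3 of their marker genes, met the criterion on the 7 genes in 3 of 91 WT nuclei (3.30%, exact 95% interval 0.685 to 9.33, median depth 1007 UMIs) and in 3 of 635 V321L nuclei (0.472%, 0.0975 to 1.37, median depth 1179). Taken by at least 3 UMIs from 2 markers, they met it in 7 of 240 WT nuclei (2.92%, 1.18 to 5.92) and in 10 of 856 V321L nuclei (1.17%, 0.562 to 2.14). Astrocyte and radial glia nuclei met it in 0 of 180 WT nuclei, which allows a share of up to 1.67%, and in 4 of 440 V321L nuclei (0.909%, 0.248 to 2.31). In nuclei that met the criterion on granule cell genes it was 35 of 5502 in WT (0.636%, 0.443 to 0.884) and 55 of 4391 in V321L (1.25%, 0.945 to 1.63). These class shares used only the criterion on the 7 genes, while the shares of chosen nuclei also required at most 1 UMI of the 5 exclusion genes. That requirement left out a further 31 nuclei in WT and 31 in V321L, so the measures are not fully alike. The WT share of 0.887% was not above either interval in WT oligodendrocyte nuclei. At 1000 UMIs the WT share of 0.224% lay below both intervals, but oligodendrocyte nuclei were not thinned. The WT share was thus not shown to be above their level at either depth. In astrocyte nuclei 0.887% lay under the limit, but a count of 0 cannot show whether the share was above their level. The WT share of 0.887% lay just above the interval in nuclei that met the criterion on granule cell genes. The V321L share of 2.20% was above both intervals in oligodendrocyte nuclei, but V321L nuclei had a median depth of 3466 ± 740 UMIs. It stood close to the upper limit of 2.31% in astrocyte nuclei, and with the 31 nuclei left out it cannot be placed against that interval. At 1000 UMIs, near the depth of oligodendrocyte nuclei, which were not thinned, the V321L share of 1.19% lay inside both of their intervals. It could not be told from their level. In barcodes with at most 100 UMIs, Sox11 was the most abundant of the 7 genes, at 141 ± 56.1 CPM in WT and 28.1 ± 4.13 CPM in V321L libraries, whereas Igfbpl1 was at 1.19 ± 1.88 and 5.63 ± 2.17 CPM.

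The levels of the 7 genes within the chosen nuclei are values that the rule used, so they are given as a description with no test. The level of Igfbpl1 was 60.9, 96.6, 70.2 and 30.9 CPM in WT F1, F2, M1 and M2, from 4, 7, 1 and 3 UMIs. In V321L F1, F2, M1 and M2 it was 467, 778, 586 and 583 CPM, from 69, 143, 83 and 33 UMIs. All V321L values were above all WT values. Each chosen nucleus holds at least 3 UMIs of the 7 genes by construction, so a higher share of one of them can lower the others.

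The guidance protein Sema3c stood at 183, 745, 702 and 627 CPM in WT F1, F2, M1 and M2 and at 359, 512, 530 and 883 CPM in the V321L mice. Dcx was at 259, 331, 351 and 422 CPM in WT and 237, 289, 304 and 336 CPM in V321L mice. Sox11 was at 183, 179, 562 and 339 CPM in WT and 332, 479, 388 and 389 CPM in V321L mice. The WT and V321L values overlapped for all 3 genes. Adamts18 had a mean of 191 ± 67.2 CPM in WT and 151 ± 38.1 CPM in V321L mice. Draxin stood at 26.2 ± 30.6 and 39.8 ± 13.8 CPM, and Cd24a at 27.4 ± 28.6 and 87.1 ± 24.8 CPM, and both overlapped between the genotypes.

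**Figure D3:**
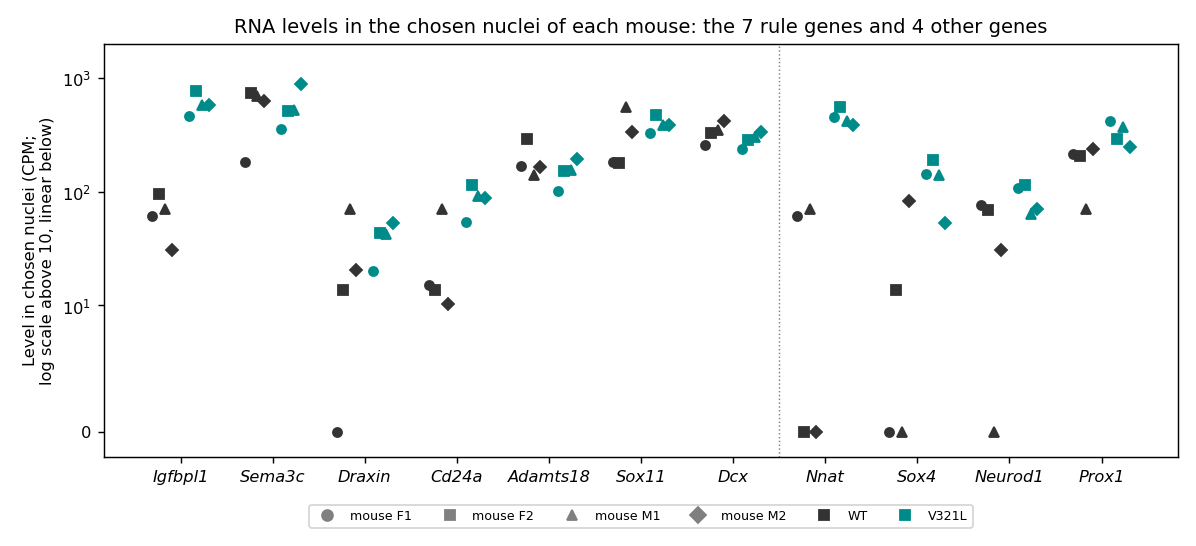
RNA level (y axis, CPM, logarithmic above 10 and linear below) in the chosen nuclei of each mouse for the 7 rule genes and for Nnat, Sox4, Neurod1 and Prox1 (x axis, divided by the dotted line). Symbols are mice and colours are genotypes. For Igfbpl1 and Nnat the lowest V321L mouse is above the highest WT mouse, and Sema3c, Dcx and Sox11 overlap.

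Markers of other cell types were read in the same sums. Of the 13 GABAergic neuron genes, 7 had a UMI in WT and 13 in V321L chosen nuclei, with Adarb2, which granule cell nuclei also hold at a mean of 1864 CPM, the most abundant (3149 and 2471 CPM). Their summed level was 2436, 6141, 4285 and 6499 CPM in WT F1, F2, M1 and M2 and 4561, 1334, 5536 and 7666 CPM in V321L F1, F2, M1 and M2, so the genotypes overlapped and V321L F2 was the lowest mouse. The oligodendrocyte lineage list had 6 of 12 genes in WT and 9 in V321L chosen nuclei, led by Tnr, at 871 ± 182 and 566 ± 160 CPM, close to the 815 ± 87.1 and 666 ± 69.0 CPM of granule cell nuclei. Radial glia and astrocyte genes summed to 185 ± 57.0 and 304 ± 130 CPM (9 and 13 of 14 genes), and microglia and vascular genes to 171 ± 142 and 77.9 ± 10.2 CPM (5 and 9 of 9, led by P2ry12). Reln led the Cajal-Retzius list at 40.1 and 47.2 CPM, and of 7 ependymal and choroid genes 1 and 2 had a UMI. The part of these cells in the genotype differences below was not tested.

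Across all genes, 382 of the 1749 tested genes differed between WT and V321L chosen nuclei (21.8%), with 237 higher (13.6%) and 145 lower (8.29%) in V321L. Igfbpl1 is counted among them. With only the Igfbpl1+ chosen nuclei 216 genes could be tested and 17 differed, and without the nuclei that held GABAergic neuron genes it was 187 of 1096. The sums rest on 8 to 56 nuclei per mouse, with 14236 UMIs in WT M1 at the lowest, and a change in the mix of nuclei cannot be told apart from a change within each nucleus. In granule cell nuclei of the same libraries, 8649 of 12267 tested genes differed. Of the 10 largest rises, 7 were those of ribosomal protein genes, and the other 3 were Mt3, a metallothionein, Cox7c, a subunit of cytochrome c oxidase, and Pcsk1n, an inhibitor of a prohormone convertase. Mt3 had no UMI in any WT chosen nucleus and 53, 26, 28 and 14 UMIs in those of V321L F1, F2, M1 and M2. Pcsk1n had 1, 0, 0 and 1 UMIs in WT and 110, 135, 66 and 45 UMIs in V321L mice. All 33 ribosomal protein genes that were tested rose in V321L chosen nuclei. With few or no WT UMIs, these genes, Mt3, Cox7c and Pcsk1n passed the filter on low counts only through the V321L mice. The number of rising ribosomal protein genes and their median are thus not read as a result about the set. Over the 33 genes the summed level was 304, 152, 983 and 216 CPM in WT F1, F2, M1 and M2 and 10509, 6168, 5176 and 12188 CPM in the V321L mice. Rplp1 and Rps15 had no UMI in any WT chosen nucleus and 219 and 122 UMIs in the V321L ones, which is at least 34.4-fold and 19.2-fold higher against a limit of 3 counts over the WT mice. The median log2 fold change over the 33 was 4.91, and 4.22 with genes of under 3 WT UMIs set at that limit. Their median in granule cell nuclei was 4.17, and that over all genes tested was −0.02 in chosen nuclei. The mitochondrial genes moved the same way, 8 of 9 tested rising. The part of this library-wide shift in the other genotype differences was not tested.

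Of the 22 immature neuron genes, 5 were tested, of which 3 rose and none fell, with a median log2 fold change of 1.23. Nnat and Stmn1 had almost no WT UMIs and passed the filter on low counts only through the V321L mice. The count and the median thus include genes admitted by the change itself and are not read as a result about the list. For the same reason the changes of Nnat and Stmn1 are given as values only. Nnat was at 60.9, 0, 70.2 and 0 CPM in WT F1, F2, M1 and M2 and at 453, 561, 417 and 389 CPM in V321L F1, F2, M1 and M2 (log2 fold change 4.57, SE 0.55, adjusted p = 3e-05). The lowest V321L mouse was above the highest WT mouse. Within Igfbpl1+ chosen nuclei alone the change was 2.53 and did not pass (adjusted p = 0.061). Stmn1, which destabilises microtubules, had 0, 1, 2 and 0 UMIs in the WT mice and 53, 64, 20 and 26 UMIs in the V321L mice. In granule cell nuclei Stmn1 rose as well, by 2.91. Its relative Stmn2 rose by 1.23 (SE 0.41, adjusted p = 0.0425), a call lost in 10 of 18 alternatives and without WT F1, M1 or M2 or V321L F1 or M2. Elavl2, an RNA-binding protein of young neurons, stood between 276 and 432 CPM in WT and between 142 and 282 CPM in V321L mice and did not pass (adjusted p = 0.101). Sox4, the partner of Sox11 in the SoxC family, was not tested because of its low counts, at 0, 13.8, 0 and 82.3 CPM in the WT mice and 142, 191, 141 and 53.0 CPM in the V321L mice.

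Of the neuronal microtubule genes, 4 of the 9 tested rose and 1 fell. Tuba1a, an alpha-tubulin of growing axons, had 0, 0, 1 and 1 UMIs in WT and 57, 78, 18 and 24 UMIs in V321L mice. It too passed the filter on low counts only through the V321L mice. The microtubule stabiliser Mapt rose by 1.59 (SE 0.26), from between 124 and 213 CPM in WT to between 389 and 468 CPM in V321L mice. Stmn3 (2.84) and the motor protein Kif5c (0.998) also rose, and the call of Kif5c was lost in 10 of 19 alternatives, among them those without WT F1 or F2 or V321L F2 or M2. The kinase Dclk2, related to Dcx, fell by 0.91 (SE 0.29), a call lost in 8 of 17 alternatives and without WT M2 or V321L F1, M1 or M2. In granule cell nuclei Tuba1a, Stmn3 and Mapt also rose, by 2.83, 2.74 and 1.06, and Dclk2 fell by 0.80. Kif5c did not pass there (0.003, edgeR adjusted p = 0.979).

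Of the granule lineage genes, 2 of the 5 tested rose. Prox1 was at 213, 207, 70.2 and 237 CPM in WT F1, F2, M1 and M2 and at 420, 294, 374 and 247 CPM in the V321L mice (log2 fold change 0.90, SE 0.28, adjusted p = 0.0335). The lowest V321L mouse stood just above the highest WT mouse, and with the replicate number as a block the call was lost (0.72, adjusted p = 0.121). It was lost in 11 of 20 alternatives, among them those without WT F1, F2 or M1 or V321L F1. Bcl11b, a transcription factor of neurons, rose by 1.47 (SE 0.39), a call lost without WT F2. Zbtb20, a repressor that is abundant in the hippocampus, did not pass, at 6054 ± 1566 CPM in WT and 5607 ± 791 CPM in V321L mice.

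Genes of axon guidance fell or did not pass. The netrin receptor Dcc, the most abundant of them, was at 2634, 4761, 1897 and 4854 CPM in WT F1, F2, M1 and M2 and at 2389, 3473, 4463 and 3321 CPM in the V321L mice (0.10, SE 0.28, adjusted p = 0.834). Its groups overlapped. Unc5c, a netrin receptor for repulsion, was at 1218, 1918, 2880 and 1039 CPM in WT and at 508, 114, 346 and 442 CPM in V321L mice (−2.09, SE 0.41, adjusted p = 0.00142), with no overlap. Slit2 fell by 1.53 and its receptor Robo2 by 0.995, so that 3 of the 7 genes tested of the netrin, draxin and DCC receptor list, which also holds Slit and Robo genes, fell. Robo2 overlapped between the genotypes, with 421 CPM in WT M1 against 335.6 to 607 CPM in V321L mice, and its call was lost in 9 of 20 alternatives, among them those without WT F1 or M2 or V321L F1, F2 or M2. Sema3e fell by 1.66 (SE 0.32), the only one of 6 tested semaphorin genes that passed. In granule cell nuclei Unc5c, Slit2, Robo2 and Sema3e fell as well, by 1.19, 0.98, 1.02 and 2.09.

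Of the 8 mature GC genes tested, 1 rose and 2 fell, with a median log2 fold change of −0.52. Nrgn rose by 3.89, and Rfx3 fell by 1.13, a call lost in 4 of 23 alternatives. The other large falls were those of Gm42418 (−4.13), Gm26917, AY036118, Trps1, Sdk1, Slc9a9, 4930509J09Rik, Ccbe1 and Nkain3. All of these fell in granule cell nuclei too, by between 1.18 (Slc9a9) and 4.87 (Gm42418), with Trps1 at 2.33. Trps1, a transcriptional repressor, was at 2010, 2001, 1124 and 926 CPM in the WT mice and at 189, 158, 212 and 389 CPM in the V321L mice (−2.61, SE 0.35, adjusted p = 5.27e-05). Malat1, an RNA kept in the nucleus, was at 7612, 6514, 8991 and 9986 CPM in the WT mice and rose by 2.07 (SE 0.17) in V321L mice. In granule cell nuclei Malat1 and Nrgn also rose, by 1.76 and 2.65, and Rfx3 fell by 1.58. Nrg1 itself was at 381, 828, 492 and 730 CPM in WT and at 291, 582, 756 and 512 CPM in V321L chosen nuclei (−0.05, SE 0.31, adjusted p = 0.928). None of the 4 neuregulin and ErbB genes tested passed, and this list does not hold Erbb4, which is counted with the GABAergic genes.

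Of the remaining lists, the mossy and pyramidal neuron genes had 3 tested, with Slc17a7, a vesicular glutamate transporter, rising by 1.71 and Spock1 and Nectin3 falling by 1.48 and 1.63. The call of Spock1 was lost without WT F2 or V321L F2, and that of Nectin3 in 7 of 17 alternatives and without WT F1 or M2 or V321L F1, F2 or M1. Of 4 genes enriched in semilunar granule cells, Mdh1 (3.30) and Chgb (1.55) rose, and the call of Chgb was lost without WT F2 or M2 or V321L M1. Of 2 Polycomb repressive complex 2 genes, Mtf2 rose by 1.14 and Jarid2 fell by 0.88. In granule cell nuclei Slc17a7, Mdh1 and Chgb also rose, by 2.26, 1.99 and 1.12. Spock1, Nectin3 and Jarid2 also fell there, by 2.42, 1.83 and 1.56, while Mtf2 fell by 0.64. The call of Mtf2 was lost in 5 of 17 alternatives, among them that without WT F1, and that of Jarid2 in 12 of 19, among them those without WT M2 or V321L F1, F2 or M2. None of the 3 Notch pathway, 2 IGF pathway, 4 GABAergic and 1 oligodendrocyte lineage genes tested passed, and no gene of the progenitor, radial glia, Cajal-Retzius, microglia and ependymal lists passed the filter on low counts.

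Since the libraries differ as a whole, the genotype effect was then compared with that in granule cell nuclei of the same mice, by the interaction of class and genotype with mouse as a block. It differed for 74 of 10016 genes (0.739%), 72 of them higher and 2 lower in the chosen nuclei. Over all genes the interaction had a median of 0.29 on the log2 scale, and without TMM normalization this was 0.04 and the calls were 46 higher and 8 lower. DESeq2 called 5 genes. Of the 382 genes that differed within the chosen nuclei, 10 also passed here.

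Nnat had an interaction of 3.16 (SE 0.57, edgeR adjusted p = 2.19e-05), with a genotype effect of 4.57 in chosen and 1.17 in granule cell nuclei. Its WT level in chosen nuclei rests on 4, 0, 1 and 0 UMIs in F1, F2, M1 and M2, so this interaction is given as a value only. Prox1 is among the genes by which granule cell nuclei were taken, so its interaction is not read here. Dcc (1.40), Plxna2 (1.31), a semaphorin receptor, and Camk4 (1.35), a calcium-dependent kinase, fell in V321L granule cell nuclei and did not pass in the chosen nuclei, and the difference itself passed for each (adjusted p = 8.10e-05, 0.00325 and 0.0233). The call of Camk4 was lost without WT F1, M1 or M2 and without V321L F2, M1 or M2. The largest interactions, between 3.02 and 5.63, were those of Gpc6, Vwc2l, Cntn6, Rmst, Dlx6os1, Alk, Nnat and St6gal1. Vwc2l, Dlx6os1 and St6gal1 had means of 154, 125 and 53.7 CPM in chosen nuclei. In granule cell nuclei they stood at only 2.94, 1.48 and 2.85 CPM and had no genotype estimate of their own. Their interactions rest on almost no granule cell counts and are not read as a difference in genotype effect. Cntn6, Rmst and Alk were also low in granule cell nuclei, at 6.48, 3.47 and 3.54 CPM. Gpc6, Rmst and Alk did not pass the filter on low counts in chosen nuclei and had no genotype estimate there. The interactions of Gpc6, Cntn6, Rmst and Alk are therefore given as values only. The call of St6gal1 was lost in 10 of 16 alternatives, among them those without WT F1, F2 or M1 or V321L F2 or M1. The call of Nnat was lost in 3 of 16, and those of Rmst and Dlx6os1 without V321L M1. Of the 7 GABAergic neuron genes tested, Dlx6os1 (3.46), Erbb4 (2.49) and Adarb2 (1.12) passed. None of these 3 passed within the chosen nuclei, and Dlx6os1 is not read because of its low granule cell counts. The sign of Erbb4 turned, without passing, when nuclei with GABAergic neuron genes were left out (-5.23) and at 1000 UMIs (-2.78), and that of Adarb2 at 1000 UMIs (-1.48). The call of Adarb2 was lost without WT F1 or M1 and without V321L F1, M1 or M2. Unc5c (−1.26) fell further in chosen than in granule cell nuclei, and its sign turned when only nuclei with 5 or more UMIs from 3 or more of the 7 genes were kept (0.36) and in Igfbpl1+ chosen nuclei (10.71), without passing in either. Its call was also lost without WT F2 or V321L F2. Igfbpl1 itself had a mean of 0.819 CPM in granule cell nuclei.

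The rule set a minimum of 500 ATAC counts per nucleus but did not use where in the genome these counts lie, and the accessibility of single promoters is read here on that basis. Granule cell nuclei had been taken by RNA of Calb1, Dock10, Ntng1, Plk5, Glis3, C1ql2 and Prox1, so the promoters of these genes are not fully independent of the class they were compared with. ATAC counts were summed over the peaks within 1 kb of each gene's start, and chosen and granule cell nuclei of the same mouse were compared. Peaks had been called in each library. Of 12828 promoters, 166 differed (1.29%), with 36 more accessible (0.281%) and 130 less accessible (1.01%) in chosen nuclei. The median over all promoters was −0.13 on the log2 scale. Without TMM it was 0.05, and the calls were 53 more and 50 less accessible. With only the Igfbpl1+ chosen nuclei they were 2 more and 214 less accessible, and without the nuclei that held GABAergic neuron genes they were 16 and 115. Leaving out V321L M1, the library with the most ATAC counts, left 43 calls, V321L F2 65 and WT M2 88.

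Promoters of mature GC genes were less accessible in the chosen nuclei. Their summed accessibility, over 11 promoters, was lower than in granule cell nuclei in 8 of 8 mice, with a mean log2 ratio of −0.77 ± 0.18 (SD, exact sign-flip p = 0.00781, the smallest that 8 mice allow, and 0.0312 adjusted over 12 lists). Calb1, the calcium-binding protein of mature GCs, was at 16.5, 65.8, 13.9 and 0 ATAC CPM in chosen nuclei of WT F1, F2, M1 and M2 and at 0 in all V321L mice, while granule cell nuclei held between 30.4 and 47.4 ATAC CPM (log2 fold change −2.76, SE 0.56, adjusted p = 0.000581). Only WT F2 was higher in chosen nuclei, and the call was lost without V321L M1. The list sum holds promoters such as those of Calb1 and Dock10, by whose RNA granule cell nuclei were taken. No sum without them was made, so the tests of this list are not independent of that choice. Summed over WT mice, Calb1 was at 16.7 ATAC CPM in chosen nuclei and at 5.59, 16.6 and 17.7 in GABAergic, astrocyte and oligodendrocyte nuclei. Its low level is thus not particular to the chosen nuclei. Over the Igfbpl1+ chosen nuclei the Calb1 promoter had 0 of 600079 ATAC counts, and over granule cell nuclei 1755 of 48233190. Maml2 (−1.25), Camk2a (−1.003), Icam5 (−0.96) and Dock10 (−0.98) were also lower, so that 5 of the 11 passed, all lower, and of these Maml2, Camk2a and Icam5 had no part in the choice of either class. The calls of Icam5 and Dock10 were lost without V321L F2, M1 or M2, that of Icam5 also without WT F2 and that of Dock10 without WT F1 or M2. Outside the lists, Cpne6, a calcium-dependent protein of mature neurons, was at 25.9 ± 12.3 ATAC CPM in chosen and 84.6 ± 10.7 in granule cell nuclei, lower in 8 of 8 mice (−2.05, SE 0.32, adjusted p = 1.60e-06). In other lists Adarb2 (−2.58), Slit1 (−2.01) and Mbp (−1.23) were lower, and Slit1 turned to 0.16 when peaks within 5 kb were summed. The call of Slit1 (edgeR adjusted p = 0.0489) was lost when any 1 of the 8 mice was left out, and that of Adarb2 without V321L F2 or M1.

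Promoters of the immature neuron genes were more accessible. Summed over 15 promoters, they were higher in 8 of 8 mice with a mean log2 ratio of 0.57 ± 0.22 (exact sign-flip p = 0.00781, adjusted 0.0312), and over all promoters tested the mean ratio was 0.08 ± 0.17. None of the 15 passed by itself. Stmn1 had 125 ± 39.4 ATAC CPM in chosen and 67.0 ± 7.61 in granule cell nuclei and was higher in 8 of 8 mice (adjusted p = 0.087). Semaphorin receptors and ligands were higher in 8 of 8 mice as well, by 0.28 ± 0.20 (exact sign-flip adjusted p = 0.0312). Against the ratio over all promoters, the immature neuron list was higher by 0.49 and the mature GC list was at −0.85 (exact sign-flip adjusted p = 0.0469 for both), while the semaphorin list was higher by 0.20 and its call was lost (adjusted p = 0.0938). The other 9 lists did not pass, and among them the granule lineage genes had a mean of −0.10 ± 0.33 and the progenitor and cell cycle genes 0.24 ± 0.42. Neurod1, which is on the immature neuron list, was at 45.1 ± 30.8 ATAC CPM in chosen and 27.9 ± 3.85 in granule cell nuclei and was higher in 7 of 8 mice without passing (adjusted p = 0.585).

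**Figure D4:**
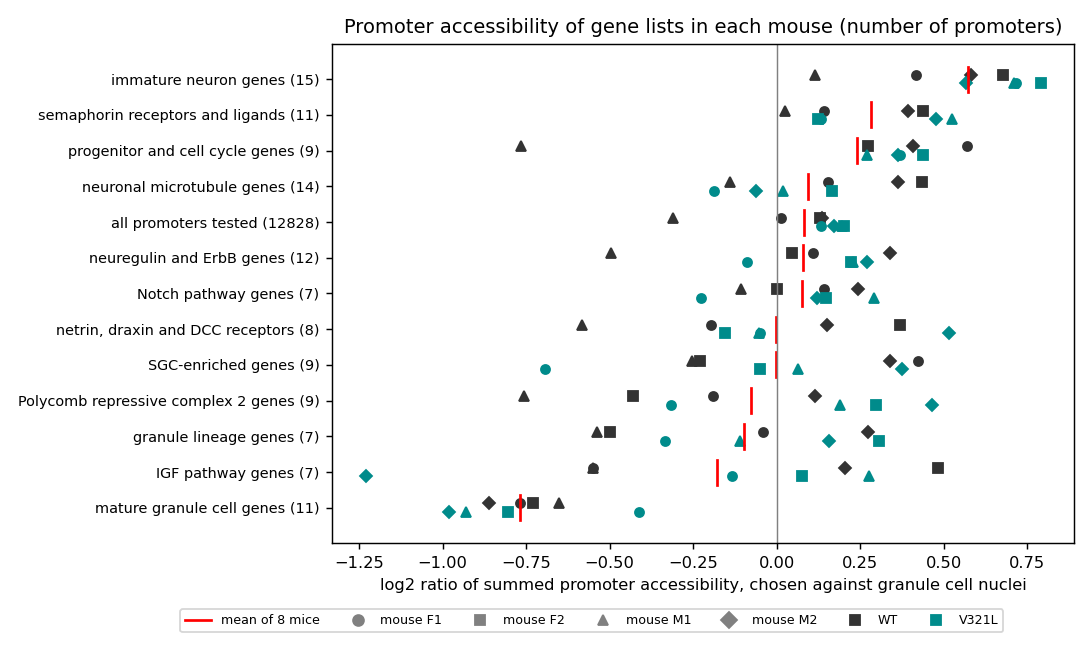
Log2 ratio of summed promoter accessibility in chosen against granule cell nuclei (x axis, with 5 CPM added to both) for each gene list (y axis, number of promoters in brackets). Symbols are mice, colours are genotypes and red lines are means of 8 mice. All 8 mice are above 0 for immature neuron genes and below 0 for mature granule cell genes.

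The Neurod1 promoter had a count in 26 of 97 V321L and 2 of 12 WT Igfbpl1+ nuclei (26.8% and 16.7%), in 6 of 62 and 8 of 74 chosen nuclei without Igfbpl1 (9.68% and 10.8%), and in 7.88% and 5.97% of granule cell nuclei. For Igfbpl1 a peak within 1 kb of the start had been called only in V321L M1, the library with the most ATAC counts. There, 6 of 23 Igfbpl1+ nuclei and 1 of 20 other chosen nuclei had a count in it, against 4 of 822 granule cell nuclei and 0 of 24 GABAergic nuclei, which allows up to 12.5%. Within 5 kb, WT F2 and WT M2 also had a peak, with counts in 3 of 8 Igfbpl1+ nuclei, 3 of 54 other chosen nuclei and 24 of 3190 granule cell nuclei.

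Beyond the lists, promoters with the largest gain in chosen nuclei included those of Zfp217, Hivep1, Crnde, Nectin2, Timp2, A330093E20Rik, Man1a, Gm16998 and Plekhg2, with log2 fold changes between 4.07 and 1.97. Without V321L M1 the calls of Crnde, A330093E20Rik, Man1a, Gm16998 and Plekhg2 were lost. That of A330093E20Rik was also lost without WT M2 or V321L F2, and those of Man1a and Gm16998, whose values are the same, without WT F2 or M1 or V321L F2 or M2. Zfp217, a zinc finger protein, was at 33.0, 32.9, 13.9 and 26.2 ATAC CPM in chosen nuclei of WT F1, F2, M1 and M2 and at 69.5, 35.5, 35.9 and 136 in those of V321L F1, F2, M1 and M2. Granule cell nuclei were between 0.899 and 4.63 in all 8 mice (log2 fold change 4.07, SE 0.58, adjusted p = 7.56e-08). Nectin2, an adhesion protein (2.32), was higher in 8 of 8 mice. Summed over mice, Zfp217 was at 68.3 ATAC CPM in Igfbpl1+ chosen nuclei, 17.7 in the other chosen nuclei, 22.8 in GABAergic, 60.2 in astrocyte and 2.22 ATAC CPM in granule cell nuclei. For Zfp217, Hivep1, Nectin2, Timp2 and Plekhg2, granule cell nuclei were the lowest of the 6 classes compared.

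**Figure D5:**
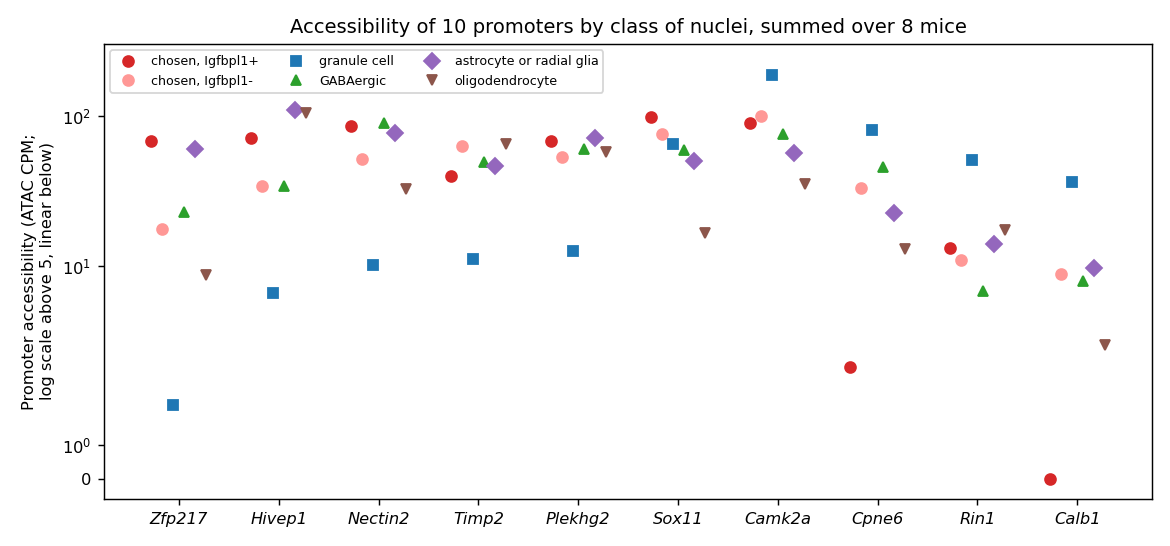
Accessibility (y axis, ATAC CPM, logarithmic above 5 and linear below) of 10 promoters (x axis) in each class of nuclei, summed over the 8 mice. From Zfp217 to Plekhg2 granule cell nuclei (blue squares) are the lowest class, and at Camk2a, Cpne6, Rin1 and Calb1 they are the highest.

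Of the promoters with the largest gain, 4 are printed below as RefSeq gives them on build GRCm38.p6, from 250 bases before to 50 bases after the start. They are not the leading 4, as Crnde (2.48) gained more than Nectin2 (2.32) and Timp2 (2.13). With only the Igfbpl1+ chosen nuclei Hivep1 passed (2.43, edgeR adjusted p = 0.0154). Nectin2 (1.78, edgeR adjusted p = 0.111) and Timp2 (0.85, edgeR adjusted p = 0.384) did not, and Zfp217 had no estimate. The letters were searched for the E-box motifs CAGATG (read CATCTG on the other strand) and CAGCTG, which bHLH factors such as Neurod1 can bind, and hits are in capitals. Of 32851 promoters of this length, 17.2% hold CAGATG and 16.3% hold CAGCTG on either strand.
Zfp217 (chr2:170131171-170131470, minus strand): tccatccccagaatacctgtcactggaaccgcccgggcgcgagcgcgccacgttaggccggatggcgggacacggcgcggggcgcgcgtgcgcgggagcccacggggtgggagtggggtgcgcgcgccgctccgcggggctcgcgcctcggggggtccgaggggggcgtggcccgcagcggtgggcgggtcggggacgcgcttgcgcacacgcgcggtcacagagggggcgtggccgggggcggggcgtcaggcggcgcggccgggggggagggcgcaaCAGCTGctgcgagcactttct
Hivep1 (chr13:42051771-42052070, plus strand): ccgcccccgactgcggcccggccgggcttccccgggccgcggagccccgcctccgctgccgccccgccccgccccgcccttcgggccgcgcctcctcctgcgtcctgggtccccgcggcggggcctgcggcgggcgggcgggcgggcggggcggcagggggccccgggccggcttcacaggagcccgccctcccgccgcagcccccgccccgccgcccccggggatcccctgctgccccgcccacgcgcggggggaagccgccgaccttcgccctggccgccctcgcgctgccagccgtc
Nectin2 (chr7:19749524-19749823, minus strand): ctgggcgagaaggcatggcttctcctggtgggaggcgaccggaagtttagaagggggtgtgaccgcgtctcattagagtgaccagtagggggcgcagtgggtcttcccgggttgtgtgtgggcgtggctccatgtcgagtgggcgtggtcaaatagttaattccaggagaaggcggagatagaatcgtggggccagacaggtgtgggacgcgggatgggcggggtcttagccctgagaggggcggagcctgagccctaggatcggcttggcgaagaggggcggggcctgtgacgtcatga
Timp2 (chr11:118355362-118355661, minus strand): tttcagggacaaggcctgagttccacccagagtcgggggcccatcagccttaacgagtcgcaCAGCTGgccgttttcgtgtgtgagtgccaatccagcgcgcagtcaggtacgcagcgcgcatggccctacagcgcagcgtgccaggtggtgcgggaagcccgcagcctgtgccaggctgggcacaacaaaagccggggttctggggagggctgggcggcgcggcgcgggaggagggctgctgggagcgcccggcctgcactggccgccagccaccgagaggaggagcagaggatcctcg
Sox11 (chr12:27342669-27342968, minus strand): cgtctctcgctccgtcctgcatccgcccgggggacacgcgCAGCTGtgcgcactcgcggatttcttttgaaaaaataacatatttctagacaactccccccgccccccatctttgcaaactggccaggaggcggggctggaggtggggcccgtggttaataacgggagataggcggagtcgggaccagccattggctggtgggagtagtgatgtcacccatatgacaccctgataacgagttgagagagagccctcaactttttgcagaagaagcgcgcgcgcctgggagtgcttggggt

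For Zfp217 the start shown is the one of 2 in RefSeq that had a peak in all 8 libraries. Zfp217 and Timp2 held 1 CAGCTG each, and Hivep1 and Nectin2 held neither motif. Sox11 is shown as a gene of the rule whose promoter did not pass, at 92.7 ± 46.9 ATAC CPM in chosen and 69.7 ± 13.9 in granule cell nuclei (log2 fold change 0.18, SE 0.24, adjusted p = 0.897), and it held 1 CAGCTG too. A motif match describes the letters only.

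Stages along the lineage were counted as the share of chosen nuclei with at least 1 UMI of a gene. Of 9 shares, Prox1 had the smallest p that 4 against 4 mice allow (exact permutation p = 0.0286), which adjusts to 0.257, so a single share could not pass after adjustment in this design and nothing is read from the adjusted values. Prox1 was found in 43.8%, 25.9%, 12.5% and 40% of the chosen nuclei of WT F1, F2, M1 and M2 and in 64.3%, 51.8%, 58.1% and 50% of those of the V321L mice. All V321L mice were above all WT mice. Granule cell nuclei had it in 42.1% ± 6.88 in WT and 56.2% ± 5.66 in V321L mice, but Prox1 is among the genes by which they were taken.

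Of the genes of earlier stages, Eomes, the marker of intermediate progenitors, was found in 0 of 86 WT and 5 of 159 V321L chosen nuclei. A count of 0 allows up to 3.49% of nuclei with an Eomes UMI, and sets no limit on nuclei that express it without a UMI. Progenitor and cell cycle genes together were found in 13 of 86 and 34 of 159, or 17.1% ± 7.28 and 22.2% ± 4.28 over mice, and in 10.4% ± 2.33 of WT and 19.98% ± 1.66 of V321L granule cell nuclei. Top2a, which is expressed in dividing cells, was at 98.0 CPM in V321L F2 and at 0 in V321L F1, M1 and M2, and at 0, 13.8, 140 and 0 CPM in WT F1, F2, M1 and M2, where WT M1 has only 8 chosen nuclei.

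Genes of later stages were found in both genotypes. Calb2, of the transient postmitotic stage, was found in 1 of 86 WT and 11 of 159 V321L chosen nuclei, in all 4 V321L mice and in 1 WT mouse (exact permutation p = 0.0571, adjusted 0.257). With nuclei that held GABAergic neuron genes left out, it was in 1 of 66 and 7 of 131 (exact permutation p = 0.229). Neurod1 was found in 12 of 86 and 39 of 159, and Calb1 in 10 of 86 and 33 of 159. Ntng1, a gene of mature GCs, was found in 24.6% ± 10.6 of WT and 20.3% ± 4.13 of V321L chosen nuclei, against 66.0% ± 4.21 and 83.0% ± 5.35 of granule cell nuclei, for which it is also a gene of choice. At 1000 UMIs these counts used 1 random draw, in which WT M1 had no chosen nucleus and was left out. There, Ntng1 was in 1 of 18 WT and 1 of 76 V321L chosen nuclei and Prox1 in 3 of 18 and 33 of 76. Penk, a marker of semilunar granule cells, was found in 0 of 86 WT and 3 of 159 V321L chosen nuclei. When nuclei with GABAergic neuron genes were left out, it was found in 0 of 66 WT and 0 of 131 V321L chosen nuclei.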

How the data were processed

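Nuclei of frozen DG from 8 mice were profiled with 10x Multiome, 1 library per mouse. The deposited values are raw counts per barcode (RNA UMIs per gene and ATAC counts per peak), which the authors made with Cell Ranger ARC 2.0.2 on mm10, with peaks called in each library. Seurat and Signac are named in the submitters' processing notes. Nuclei with over 500 UMIs, over 250 genes and at least 500 ATAC counts were kept, below upper limits on UMIs, genes and mitochondrial share. Those kept held 501 to 8911 UMIs and mitochondrial shares of up to 2.78%. Nuclei with a high doublet score (Scrublet in scanpy 1.11.5) were kept, and leaving them out was an alternative.

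Counts were summed per mouse and class and compared by quasi-likelihood F tests in edgeR 4.0.16 (TMM, filterByExpr, Benjamini-Hochberg adjustment, threshold 0.05), and DESeq2 1.42.0 was an alternative. Shares were tested over mice by exact permutation, and promoter lists by exact sign-flip, both two-sided. Each thinned share of chosen nuclei among all nuclei is the mean of 100 random draws. Gene comparisons and lineage stage shares in thinned nuclei used 1 draw. Genes were named from gene lists and as the largest changes among called genes whose groups did not overlap (at least 50 CPM) or called promoters (at least 20 ATAC CPM). The members and lists were chosen with earlier results of these data known. Mice are separate animals, and the labels give no batch. Intervals and limits for counts of 0 cover counting error only. Sequences are RefSeq's, on GRCm38.p6. Some genes that the rules would name are not reported here.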

Additional observations from a re-analysis of the deposited data

Results flagged for a closer look

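In 38 groups of 4 mice, 3 values stood far from the rest of their group, where chance gives about 1 in 20 groups. Calb2 was found in 6.25% of the chosen nuclei of WT F1, which is 1 nucleus, and in none of those of the other WT mice. It was found in 5.56% of the chosen nuclei of V321L M2, below the other V321L mice, and this again is 1 nucleus. Cd24a stood at 70.2 CPM in WT M1, the library with 8 chosen nuclei, and at 10.3 to 15.2 CPM in the other WT mice.

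The genotype effect differed between chosen and granule cell nuclei for 74 genes by the interaction term in edgeR, 72 of them higher in chosen nuclei. The chosen nuclei hold nuclei with and without interneuron genes, and the part of this mix in the 74 genes was not tested gene by gene. Without the nuclei that held GABAergic neuron genes, 93 genes differed.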

How the results depend on the processing

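The V321L excess in the share of chosen nuclei was 1.31 percentage points and did not pass (exact permutation p = 0.0571). It passed (p = 0.0286 each, exact permutation) at 1000 UMIs (0.968), with 5 or more UMIs from 3 or more genes (1.03), without Sox11 (1.07), without Dcx (1.08) and with no upper limits (1.495). It did not pass (p = 0.0571 each) with doublets left out (1.30), with an ATAC minimum of 1000 (1.34) or without nuclei with GABAergic neuron genes (1.15), nor at 500 UMIs (0.339, p = 0.0857), by the same exact permutation test. For choices of genes made after seeing the data it is given with no test, as 1.21, 0.869 and 0.359 with Igfbpl1+ nuclei at full depth, 1000 and 500 UMIs, 1.10 and 0.614 without Igfbpl1 at full depth and 1000 UMIs, and 0.252 and 0.151 with only Sema3c, Adamts18 and Dcx. Leaving out 1 mouse at full depth gave 1.09 to 1.66, and 1.66 passed (without V321L M2, exact permutation p = 0.0286). At 1000 UMIs it gave 0.828 to 1.14. That passed without any 1 V321L mouse (exact permutation p = 0.0286 each) and not without any 1 WT mouse (p = 0.0571 each).

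The 382 genotype calls became 12 at 1000 UMIs (of 118 tested, WT M1 dropped because it had no chosen nucleus in the 1 draw used). They became 61 when chosen nuclei were thinned afterwards, 31 under the stricter rule, 120 without Sox11 and 101 without Dcx. There were 1131 without upper limits, 187 without nuclei with GABAergic neuron genes, 17 with Igfbpl1+ nuclei, 693 in DESeq2 and 1088 without the filter. Leaving out 1 mouse gave 271 to 615 (615 without WT M1). With a replicate block 645 of 2552 genes passed. Deviations of same-numbered mice correlated at 0.0937, 0.016, -0.0272 and 0.043 for F1, F2, M1 and M2, so the mice share only a number. The share was higher in V321L in 3 of 4 such pairs (exact sign-flip p = 0.25, smallest possible 0.125).

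The 74 interaction calls became 48 at 1000 UMIs, 149 under the stricter rule and 5 in DESeq2, and 34 to 83 without 1 mouse (34 without V321L M1). The 166 promoter calls became 103 without TMM and 43 to 201 without 1 mouse (43 without V321L M1, 65 without V321L F2, 88 without WT M2). The signs that turned were those of the interactions of Gm32647 (11.96) and Unc5c (10.71) in Igfbpl1+ nuclei, Unc5c under the stricter rule (0.36), Erbb4 at 1000 UMIs (-2.78) and without nuclei with GABAergic neuron genes (-5.23) and Adarb2 at 1000 UMIs (-1.48), and that of the Slit1 promoter within 5 kb (0.16). Against the ratio over all promoters, an alternative chosen after seeing the data, the uncalled Notch pathway (-0.00647) and neuregulin and ErbB (-0.00462) lists turned sign. The causes were not tested. For named genes, 768 of 864 values of the genotype comparison, 178 of 252 of the interaction and 331 of 427 of the promoters kept direction and call.

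WT M1 had 8 chosen nuclei and 14236 UMIs in them, which limits every WT level. At this depth stages marked by 1 or 2 nuclei per mouse could not be compared.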
